A study of Mus musculus with 10 samples.

Results

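Islets sense the nutrient, hormonal and neural state of the body through G protein-coupled receptors, and 10 genes of such receptors are described here: Glp1r, Gipr, Gcgr, Ffar1, Gpr119, Adra2a, Chrm3, Sstr3, Galr1 and Npy1r. They were chosen by symbol as receptors of β cells that a G protein-coupled receptor kinase may regulate, and all 10 were found among the 17945 named genes of the table. The libraries were made from islet RNA of 18-week-old C57BL/6 mice. The 5 knockout libraries came from animals labelled as carrying the driver Pdx1-CreER, a recombinase that tamoxifen activates, together with Grk5 flox/flox alleles. The 5 control libraries came from Grk5 flox/flox animals with no driver, and a tamoxifen treatment is not named in the labels. The Pdx1 promoter is active in β cells and in part of the δ cells, and whole islets also hold α, δ and PP cells, so cells in which the driver did not act are part of every knockout value.

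When an agonist occupies such a receptor, a G protein carries the signal onward, and a receptor kinase such as GRK5 then phosphorylates the receptor so that arrestins can bind and silence it. Receptors coupled to the stimulatory G protein, among them those for GLP-1 and GIP, raise cAMP and so amplify glucose-stimulated insulin secretion. Receptors coupled to Gq release calcium through phospholipase C, and receptors coupled to the inhibitory G proteins lower cAMP and restrain secretion. A change in the phosphorylation of a receptor protein is not visible in RNA, and what is compared below is the RNA level of each receptor.

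Libraries are numbered within their group. The values are normalized counts, which are not whole reads. Between 10222 and 14632 genes were above 0 per library, with the fewest in knockout 1. Grk5 itself had 269.8, 129.9, 94.4, 207.0 and 105.5 normalized counts in knockouts 1 to 5, against 197.0, 165.0, 386.9, 331.8 and 127.9 in controls 1 to 5, so the targeted gene overlapped between the groups. Esr1, whose product lends its ligand-binding domain to CreER fusions, was between 1516.7 and 3176.8 in the knockouts. Controls 1, 3 and 4 had 2.0, 10.5 and 0.0, whereas control 2 had 2495.0 and control 5 had 773.5. Controls 2 and 5 thus go against their label by this gene, and each receptor is also given without them. β-cell markers were well represented, with all 10 of 10 above 0 in every library and a summed level of 970943.1 to 1283460.5 in knockouts and 960728.6 to 1183713.0 in controls.

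The start regions of the 2 receptors with the steadiest values, Glp1r and Ffar1, are shown to place them in the genome. Each is 50 bases before and 50 after the RefSeq start on GRCm38.p6, with the bases after that start in capitals. GENCODE M21 begins both genes further upstream, so that the bases in lower case also lie inside its gene limits. Glp1r lies on the plus strand (chr17:30901817-30901916) and Ffar1 on the minus strand (chr7:30861421-30861520).
Glp1r: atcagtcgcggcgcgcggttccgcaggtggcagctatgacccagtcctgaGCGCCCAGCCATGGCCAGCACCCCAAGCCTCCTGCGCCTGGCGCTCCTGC
Ffar1: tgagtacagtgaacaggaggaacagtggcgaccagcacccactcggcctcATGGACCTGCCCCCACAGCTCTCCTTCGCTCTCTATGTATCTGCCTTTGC

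Because several receptors signal through cAMP, 300-base start regions (250 before and 50 after the RefSeq start) were searched on both strands for the cAMP response element TGACGTCA, for its core TGACG, which the full element contains, and for the MEF2 motif. RefSeq windows were at hand for 8 of the 10 genes. No window held the full element or the MEF2 motif, which 1.79% and 0.557% of all 32851 such windows hold. The core was found in 3 genes, Sstr3, Adra2a and Gpr119, and 20.8% of all windows hold it. The 3 matches are printed with 28 bases on each side and the core in capitals. They come from chr15:78544322-78544382 (minus), chr19:54045162-54045222 (plus) and chrX:48674614-48674674 (minus). GENCODE M21 begins Sstr3 and Adra2a further upstream, so their matches lie inside its gene limits, that of Adra2a in its 1 exon. The match of Gpr119 lies outside these limits. All 3 are matches of letters only.
Sstr3: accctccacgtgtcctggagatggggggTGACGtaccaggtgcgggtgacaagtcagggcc
Adra2a: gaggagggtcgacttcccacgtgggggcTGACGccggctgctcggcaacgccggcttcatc
Gpr119: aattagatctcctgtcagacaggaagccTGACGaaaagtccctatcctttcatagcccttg

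The first question was how strongly each receptor gene is expressed in islets. Levels between genes were compared as normalized counts per kilobase of exon, with exon lengths from GENCODE M21. Glp1r stood far above the rest, at a median of 690 per kilobase in knockouts (604.5 to 901) and 828 in controls (741 to 1097), and its lowest library lay above the highest library of each of the other 9 genes. Sstr3, with a median of 165 over the 10 libraries, and Ffar1, with 137.5, followed. They did not differ beyond their spread, as Sstr3 was the higher in 6 of 10 libraries. Ffar1 in turn exceeded Galr1 (median 71.1) in 10 of 10 libraries without overlap. Galr1, Chrm3, Gipr and Adra2a formed a middle tier with medians of 71.1, 51.2, 47.1 and 41.8 per kilobase, in which each neighbour was the higher in 5 to 7 of 10 libraries and the ranges overlapped. The tier had no clear lower edge, as Adra2a exceeded Gcgr (median 20.0) in 7 of 10 libraries with overlapping ranges. Gcgr and Gpr119 (11.8) came next, and Npy1r was listed at 0 in 9 of 10 libraries.

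**Figure D1:**
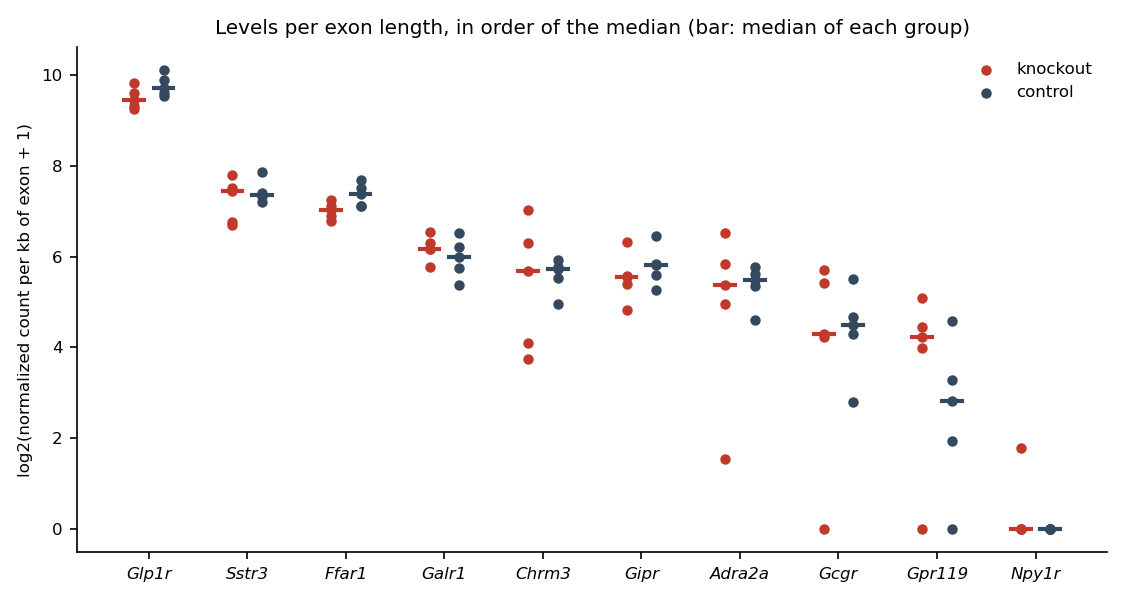
Level of each receptor gene per exon length, as log2(normalized count per kb of exon + 1), in 5 knockout (red) and 5 control (dark) libraries, with a bar at the median of each group. Glp1r stands alone at the top, with medians of 690 per kilobase in knockouts and 828 in controls, and Npy1r is above 0 only in knockout 5.

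Set among 66 other receptor genes of the table that are studied in islets, Glp1r ranked 1 of 76 per exon length, Sstr3 ranked 2 and Ffar1 ranked 4, with the calcium-sensing receptor gene Casr (150 per kilobase) between them. Galr1, Chrm3, Gipr and Adra2a ranked 6, 10, 13 and 14, Gcgr 20 and Gpr119 24. The glucagon receptor gene Gcgr and the GIP receptor gene Gipr, relatives of Glp1r in the same receptor family, thus ran at 18.7 and 45.7 per kilobase (medians) in knockouts and 21.4 and 55.5 in controls, where Glp1r had 690 and 828.

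The second question was whether the receptor genes differ between knockout and control islets. For this, genes that reached 10 normalized counts in 5 or more libraries were compared on the log2(value + 8) scale with limma, with Benjamini-Hochberg adjustment over all 11711 genes tested. Of the 10 receptor genes 9 passed this filter and Npy1r did not. None of the 9 had an adjusted p under 0.05 by limma, a rule that 0% of all genes met. At an unadjusted p under 0.05 by limma there were also 0 of 9, against 5.01% of all genes. The groups overlapped for each of the 9, where 0.862% of all genes had groups that did not overlap. Of the 9, 7 had a log2 fold change below 0, as did 52.4% of all genes, and 2 above 0. For Gcgr, Adra2a and Chrm3, which are among the 7, the mean normalized count was higher in knockouts, so by the means 4 of the 9 were lower. The median log2 fold change of the 9 was -0.20, against -0.03 over all genes tested.

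Glp1r encodes the receptor for GLP-1, the incretin that amplifies glucose-stimulated insulin secretion and is the target of the GLP-1 agonist drugs. It lies on chromosome 17 (30901817 to 30940791, plus strand, GENCODE M21 on GRCm38). Its normalized counts were 4476.2, 5236.4, 3652.4, 4011.1 and 3512.6 in knockouts 1 to 5, against 6376.0, 5481.1, 4307.1, 4813.1 and 4488.5 in controls 1 to 5. Knockouts 3, 4 and 5 lay below every control, while knockout 2 lay above controls 3, 4 and 5. The means were 4178 ± 699 in knockouts and 5093 ± 845 in controls (SD, n = 5 each). By limma Glp1r was at -0.29 ± 0.14 (SE) on the log2 scale, and the 95% limits of -0.59 to 0.02 span 0.665-fold to 1.01-fold. Its adjusted p was 0.942. An exact 2-sided permutation test of the means gave p = 0.0952 (unadjusted), where the smallest p that 5 against 5 libraries allow is 0.00794. Without controls 2 and 5 the log2 fold change was -0.30. With single libraries left out it ran from -0.37 without knockout 2, where the exact permutation p was 0.0397, to -0.20 without control 1. The exact permutation p was 0.0635 to 0.198 with any other single library left out, and 0.161 without controls 2 and 5.

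Gipr, on chromosome 7 (19156061 to 19166127, minus strand), encodes the receptor for GIP, the incretin released by K cells of the gut. It had 95.8, 159.3, 144.0, 272.9 and 162.5 normalized counts in knockouts 1 to 5, against 129.4, 300.7, 165.3, 195.8 and 193.2 in controls 1 to 5. Knockout 4 stood above 4 of the 5 controls and knockout 1 below them all. The log2 fold change was -0.25 ± 0.39 (SE, adjusted p = 0.971 by limma), with 95% limits of -1.07 to 0.57. It was -0.03 without controls 2 and 5, since control 2 was the highest of the 10 libraries. With single libraries left out it ran from -0.44 without knockout 4 to -0.08 without knockout 1.

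Gcgr, the glucagon receptor gene on chromosome 11 (120530699 to 120538986, plus strand), was listed at 0.0, 46.5, 134.5, 109.3 and 49.0 in knockouts 1 to 5 and at 15.5, 56.1, 64.3, 48.8 and 115.8 in controls 1 to 5. Library 1 of each group was the lowest of its group, and the other libraries of both groups overlapped. The log2 fold change was -0.18 ± 0.78 (SE, adjusted p = 0.988 by limma), with 95% limits of -1.80 to 1.45. Its direction was not stable, since it was 0.50 without knockout 1, the shallowest library, 0.09 without control 5 and 0.21 without controls 2 and 5. The authors' deposited table gives 0.18 for Gcgr, the sign of the means.

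Gpr119, on the X chromosome (48667979 to 48674478, minus strand), encodes a receptor for lipid amides that acts through cAMP in β cells and in incretin-secreting gut cells. It was listed at 0.0, 33.5, 74.9, 47.1 and 40.1 in knockouts 1 to 5 and at 0.0, 19.9, 6.5, 13.8 and 52.2 in controls 1 to 5. Knockouts 2 to 5 lay above controls 1 to 4, and control 5 lay above knockouts 1, 2, 4 and 5. The difference of Gpr119 was the largest of the 9 on the log2 scale, at 0.82 ± 0.76 (SE), with 95% limits of -0.78 to 2.42 and an adjusted p of 0.963 (limma). Its exact permutation p was 0.198. All its values are whole multiples of the commonest low value of their library. If that value stands for 1 read, it was read 0, 24, 142, 20 and 38 times in knockouts 1 to 5 and 0, 20, 9, 15 and 40 times in controls 1 to 5, of which controls 2, 3 and 5 may hold 2 reads per such value. By an exact Poisson 95% interval, a count of 0 allows up to 13.09 normalized counts in knockout 1 and up to 5.30 in control 1. Without controls 2 and 5 the log2 fold change was 1.46, without knockout 1 it was 1.38 and without control 1 it was 0.47, still with no adjusted p under 0.899 over 21 alternatives.

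**Figure D2:**
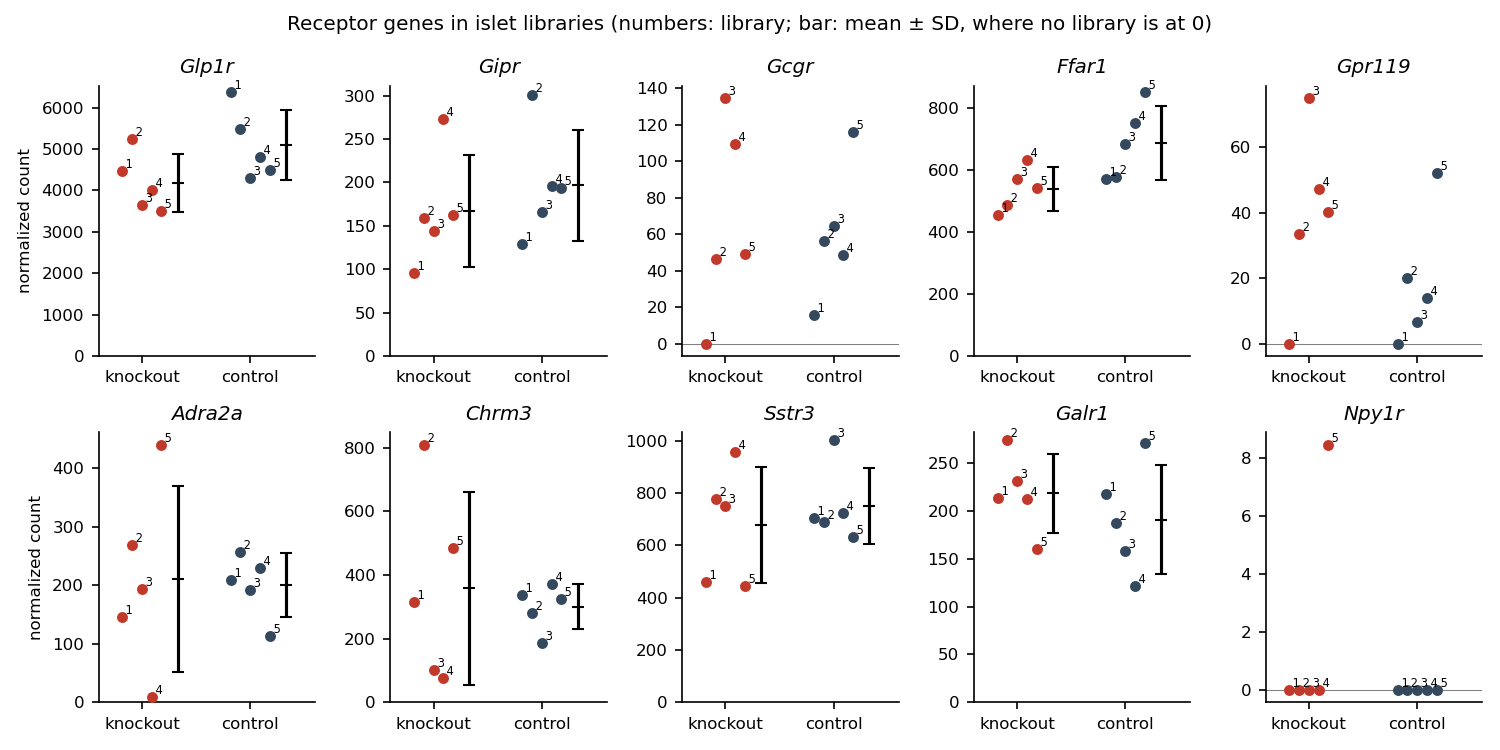
Normalized counts of the 10 receptor genes in each of the 5 knockout (left, red) and 5 control (right, dark) libraries, numbered by library, with mean ± SD where no library was listed at 0. The groups overlap for Glp1r and Ffar1, though 3 of 5 knockouts lie below every control for each, and the knockouts scatter widely for Adra2a and Chrm3.

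Of the receptors that couple to Gq, Ffar1 (also called GPR40) binds long-chain fatty acids and Chrm3 encodes the muscarinic receptor through which vagal acetylcholine promotes insulin secretion. Ffar1 lies on chromosome 7 (30857390 to 30861564, minus strand) in a single exon. It had 454.4, 487.6, 571.6, 632.8 and 541.3 normalized counts in knockouts 1 to 5, against 570.8, 576.1, 683.3, 751.8 and 850.6 in controls 1 to 5. Knockouts 1, 2 and 5 lay below every control, and controls 3, 4 and 5 lay above every knockout. The means were 537.5 ± 70.1 in knockouts and 686.5 ± 119 in controls (SD, n = 5 each). The exact permutation test gave p = 0.0476, which 5.05% of all genes tested reach or pass at 0.05, 2.6% with lower values in knockouts. It was the only receptor gene of the 10 under 0.05 by that test. The same exact test gave p = 0.107 without controls 2 and 5, 0.111 without knockout 1, 0.103 without knockout 2, 0.0635 without knockout 3 and 0.0714 without knockout 5. It gave an exact p of 0.0714 without control 3 and 0.0952 without control 4 or control 5, and stayed under 0.05 without knockout 4, control 1 or control 2. By limma the log2 fold change was -0.34 ± 0.23 (SE, adjusted p = 0.942), with 95% limits of -0.83 to 0.15, or 0.563-fold to 1.11-fold. Without controls 2 and 5 it was -0.31.

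Ffar1 was also the steadiest of the receptor genes for its level. Its SD within groups was 0.22 on the log2 scale, and 3.66% of the 1203 genes within 0.5 log2 units of its mean had a smaller one. Galr1 was similar in this respect (5.42% of 2141 genes), whereas Adra2a (91.9% of 2188) and Chrm3 (91.5% of 1983) were among the more variable genes of their level.

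Beside the lower values of Glp1r and Ffar1 in most knockouts, all 10 β-cell markers tested had log2 fold changes below 0, with a median of -0.21 and a range of -0.49 to -0.01. That median stayed below 0 under each scaling and each left-out library. Slc2a2, the glucose transporter gene of mouse β cells, was lowest among them at 2120 ± 514 in knockouts and 2923 ± 299 in controls (SD, n = 5 each; unadjusted p = 0.0103, adjusted p = 0.942 by limma). With the mean log2 level of the β-cell markers as a covariate the log2 fold change was -0.42 for Glp1r and -0.16 for Ffar1. The part of β-cell content in these values was not tested, and in whole islets fewer β cells and less RNA per β cell cannot be told apart. The summed acinar markers (16 of 16 in the table, 13 above 0 in every library) also ran lower, at 28272.6 to 73960.5 in knockouts and 20036.1 to 210398.4 in controls. With the acinar covariate Glp1r was at -0.35 and Ffar1 at -0.22. Among α-cell markers (8 of 8 in the table, 4 above 0 in every library), Gc was at 1.05 ± 0.29 and Ttr at 0.42 ± 0.16 (SE) on the log2 scale. Of the 8 α-cell markers tested 4 had a log2 fold change above 0 and 4 below 0. Their summed level was 67960.2 to 104930.9 in knockouts and 76858.2 to 106690.7 in controls. The duct marker Krt8 was at -0.46 ± 0.13 (SE), with all 5 knockouts below every control. Groups did not overlap in 0.862% of all genes tested. Of the 7 duct markers tested 3 had a log2 fold change above 0 and 4 below 0. The summed duct markers (8 of 9 in the table, 6 above 0 in every library) ran from 6290.7 to 8232.8 in knockouts and from 8078.2 to 9424.7 in controls. Krt8 is part of that sum, with means of 3679 in knockouts and 5079 in controls. The part of acinar, α and duct cells in the Glp1r and Ffar1 values was not tested.

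Chrm3, on chromosome 13 (9875486 to 10360847, minus strand), had 315.1, 810.3, 100.4, 77.9 and 486.7 normalized counts in knockouts 1 to 5, against 336.6, 281.7, 186.8, 371.6 and 325.7 in controls 1 to 5. Knockouts 2 and 5 lay above every control and knockouts 3 and 4 below every control. The means, 358 ± 303 in knockouts and 300.5 ± 71.2 in controls (SD, n = 5 each), and the log2 fold change, which was -0.20 ± 0.53 (SE, adjusted p = 0.978, limma), differ in sign. The coefficient of variation was 84.7% in knockouts and 23.7% in controls, a difference in spread that was not tested. The log2 fold change was 0.11 without knockout 3, 0.20 without knockout 4, -0.62 without knockout 2, -0.43 without knockout 5 and -0.17 without controls 2 and 5.

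The remaining 4 genes encode receptors that couple to inhibitory G proteins. Adra2a, on chromosome 19 (54044151 to 54048982, plus strand, 1 exon), encodes the α2A-adrenergic receptor, through which catecholamines shut down insulin secretion. Its normalized counts were 145.5, 269.6, 194.1, 9.4 and 440.0 in knockouts 1 to 5, against 209.9, 257.5, 192.9, 230.7 and 112.9 in controls 1 to 5. Knockout 4 was far below the other 9 libraries, while knockouts 2 and 5 were above every control. Knockout 4 held 4 reads of Adra2a on the same assumption of 1 read per commonest low value, with an exact Poisson 95% interval of 1.09 to 10.2 reads, or 2.56 to 24.1 normalized counts. That interval covers counting error only, and it ends below the lowest of the other libraries.

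Adra2a averaged 212 ± 159 in knockouts and 201 ± 54.7 in controls (SD, n = 5 each), while its log2 fold change was -0.46 ± 0.67 (SE, adjusted p = 0.969 by limma), opposite in sign. Without knockout 4 it was 0.30, without knockout 5 it was -0.87, without knockout 2 it was -0.69 and without controls 2 and 5 it was -0.58. Its coefficient of variation was 75.1% in knockouts and 27.2% in controls, a difference in spread that was not tested. Knockout 4 was the lowest library for both Adra2a and Chrm3. The summed immune cell markers were 791.8 in knockout 4, against 171.4 to 342.9 in the other knockouts and 168.6 to 281.4 in controls. Most of that sum, 585.0, was Ptprc, the gene of the leukocyte antigen CD45. C1qa was at 94.1 in knockout 4, against 97.1 to 188.1 in the other knockouts, and Lyz2 at 80.0, against 10.6 to 78.1. In the table were 6 of 8 immune markers, of which Ptprc, Cd68, Csf1r and Cd3e were at 0 in at least 1 library. The PP cell markers Ppy and Pyy were highest in the same library, at 25590.2 together. Whether immune or PP cells have a part in the Adra2a and Chrm3 values was not tested.

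**Figure D3:**
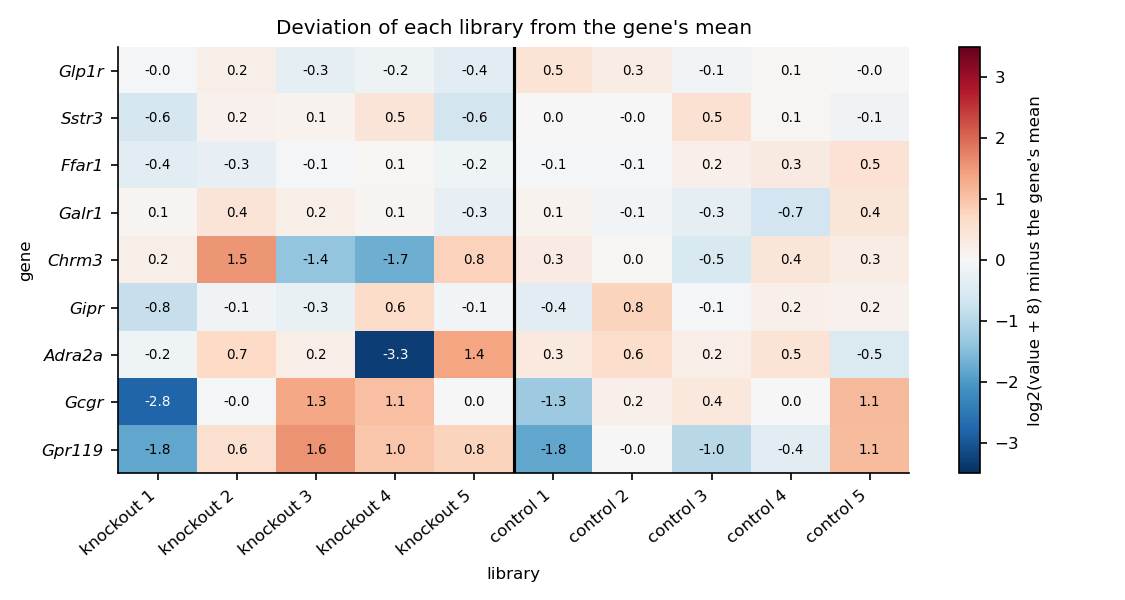
Deviation of each library from the gene's mean over the 10 libraries, on the log2(value + 8) scale, for the 9 receptor genes tested, with knockouts left of the line and controls right of it. Glp1r, Sstr3, Ffar1 and Galr1 stay within 0.7 log2 units of their mean, while Adra2a falls to -3.30 in knockout 4 and Gcgr to -2.81 in knockout 1.

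Sstr3, on chromosome 15 (78537008 to 78544685, minus strand), encodes a somatostatin receptor found on the primary cilia of mouse β cells. It had 461.5, 776.8, 750.9, 955.1 and 444.2 normalized counts in knockouts 1 to 5, against 703.0, 691.0, 1003.0, 722.4 and 633.2 in controls 1 to 5. Knockouts 1 and 5 lay below every control and the other 3 within the control range. The log2 fold change was -0.19 ± 0.26 (SE, adjusted p = 0.969 by limma), with 95% limits of -0.73 to 0.35. It was -0.30 without controls 2 and 5, -0.33 without knockout 4 and -0.06 without knockout 5.

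Galr1 on chromosome 18 (82392380 to 82406777, minus strand) encodes a receptor for galanin, a neuropeptide that inhibits insulin release. It had 213.0, 273.8, 231.0, 211.7 and 160.4 normalized counts in knockouts 1 to 5, against 217.1, 186.9, 158.1, 121.3 and 270.3 in controls 1 to 5. All but 1 knockout fell within the control range, and knockout 2 was just above it. The log2 fold change was 0.21 ± 0.35 (SE, adjusted p = 0.971 by limma), with 95% limits of -0.53 to 0.95. It was 0.40 without controls 2 and 5, 0.07 without control 4 and 0.35 without control 5.

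Npy1r, the gene of a neuropeptide Y receptor on chromosome 8 (66697192 to 66706792, plus strand), was listed at 0 in knockouts 1 to 4 and in controls 1 to 5, and at 8.4 in knockout 5. That value is 8 times the commonest low value of the library. Npy, which encodes the ligand, was listed at 0 in knockouts 1, 2, 3 and 5 and at 2.4 in knockout 4, against 21.6, 101.4, 11.5, 22.1 and 70.5 in controls 1 to 5. All controls lay above all knockouts, but Npy passed the filter through the controls alone, in which it is high, so its difference is given as values with no test.

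**Figure D4:**
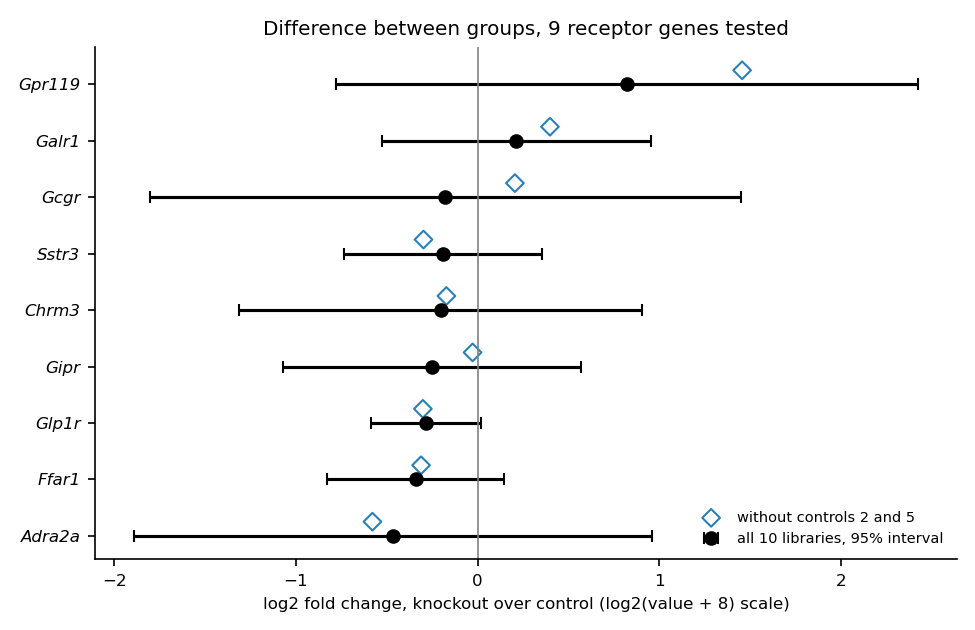
Log2 fold change of knockout over control with 95% limits by limma for the 9 receptor genes tested (filled circles, all 10 libraries) and the value without controls 2 and 5 (open diamonds). Each interval includes 0, and that of Glp1r reaches from -0.59 to 0.02.

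The authors' deposited table gives log2 fold changes of -0.29 for Glp1r and -0.35 for Ffar1, with adjusted p of 0.910 and 0.862. In that same authors' deposited table Adra2a is at 0.08 and Chrm3 at 0.25, with the sign of the means and not of the log2 values above, and each has an adjusted p of 0.999.

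Other receptor genes of islets were examined from a list of 89, of which 66 were in the table and 37 passed the filter. Of these 37, 24 had a log2 fold change below 0 and 13 above 0, with a median of -0.32, against 52.4% of all genes below 0 and a median of -0.03. None had an adjusted p under 0.05 by limma. At an unadjusted p under 0.05 there was 1 higher, against 2.36% of all genes, and 1 lower, against 2.66%. The higher was Ptger1, a prostaglandin E2 receptor gene. It had 0.0, 88.7, 259.1, 242.1 and 116.2 in knockouts 1 to 5 and 70.7, 4.0, 9.3, 0.0 and 0.0 in controls 1 to 5. Knockouts 2 to 5 lay above every control. The lower was the adenosine receptor gene Adora2a. It had 0.0, 7.0, 20.6, 0.0 and 4.2 in knockouts and 46.0, 79.5, 35.9, 27.6 and 6.5 in controls. No more than 1 control reached the minimum of the filter for Ptger1, and no more than 1 knockout for Adora2a. Each thus passed the filter mainly through the group in which it is high, so both are given as values only. The counts of 1 higher and 1 lower therefore cannot be read against 2.36% and 2.66%. The most abundant of the list were Gpr158, at 851 ± 126 in knockouts and 894 ± 135 in controls, and Casr, at 834.5 ± 337 in knockouts and 710.4 ± 185 in controls (SD, n = 5 each).

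Among the peptide ligand genes of the receptors, glucagon (Gcg), the precursor gene of both glucagon and GLP-1, was at -0.12 ± 0.13 (SE) on the log2 scale (adjusted p = 0.965, limma). Of 7 ligand genes listed 5 passed the filter, Npy among them through the controls alone. The log2 fold changes of those 5 lay below 0, as did 52.4% of all genes, and their median of -0.16 was 0.02 without controls 2 and 5.

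Downstream of the receptors, 25 of 32 G protein subunit, adenylyl cyclase, phospholipase C and cAMP effector genes were tested, of which 15 had a log2 fold change above 0 and 10 below, with a median of 0.05 and none passing after adjustment by limma. Of all genes 47.6% were above 0. At an unadjusted p under 0.05 there were 3 higher, against 2.36% of all genes, and 2 lower, against 2.66%. Gnao1, the α subunit gene of the inhibitory Go, was at 0.58 ± 0.24, with 3368 ± 1146 normalized counts in knockouts and 2240 ± 680 in controls (SD, n = 5 each; unadjusted p = 0.0283, adjusted p = 0.942). Gnal, of a stimulatory α subunit related to Gs, was listed at 34.0, 36.2, 11.1, 81.8 and 23.1 in knockouts and at 0.0, 0.0, 11.8, 0.0 and 1.6 in controls. Rapgef3, of the cAMP sensor Epac1, was at 23.3, 47.6, 49.9, 80.5 and 69.8 in knockouts and at 0.0, 8.9, 0.0, 31.7 and 0.0 in controls, and knockouts 2 to 5 lay above every control. No more than 1 control reached 10 for either Gnal or Rapgef3, so both passed the filter through the knockouts, in which they are high. They are 2 of the 3 higher genes, so the count of 3 cannot be read as an excess over 2.36%. Gnai2 and Prkar2a, chosen after their values were seen, were the 2 lower genes, at -0.35 ± 0.16 and -0.90 ± 0.42 (SE). Gnas, the Gs α subunit gene that the incretin receptors use, was at 0.05 ± 0.14, or 4328 ± 645.5 in knockouts and 4169 ± 529 in controls. The 8 receptor kinase and arrestin genes tested of 12 symbols listed, older ones included, had a median of -0.05 and none at an unadjusted p under 0.05. The kinase gene Adrbk2, also known as Grk3, was at -0.04 ± 0.29, and Grk4 at 0.63 ± 0.40 (SE).

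**Figure D5:**
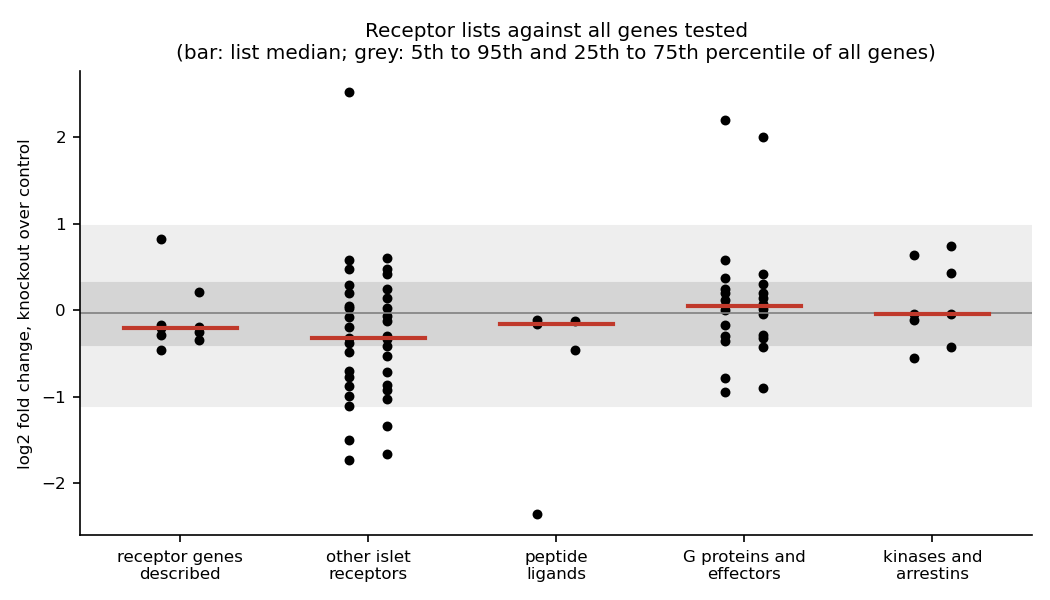
Log2 fold change of knockout over control for each tested gene of 5 lists (points), with the list median (red bar), over the range of all 11711 genes tested (light grey, 5th to 95th percentile, -1.11 to 0.98; dark grey, 25th to 75th, -0.40 to 0.31). The medians of all 5 lists, from -0.32 for the other islet receptors to 0.05 for G proteins and effectors, lie inside the dark band.

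The genes whose pattern over the 10 libraries was most like a receptor gene's were found by the mean absolute difference in log2 level after centring each gene. For Glp1r the nearest was Ccrn4l, at 0.08 log2 units per library, followed by Gnai2, the inhibitory α subunit gene above, at 0.11. The median over all genes was 0.68. For Gipr the nearest were the mitochondrial chaperonin gene Hspd1 (0.14) and Ap1b1 (0.15), against a median of 0.71. Adra2a was nearest to Immt and Gphn (0.30 and 0.31), against a median of 1.04. Among the receptor genes themselves, Ffar1 and Sstr3 were each other's nearest, at 0.31 per library, as were Gcgr and Gpr119, at 0.52, which share the low value in library 1 of each group. A nearest gene among all genes has the smallest of the distances whose median is given, so it lies below that median by construction. The libraries share depth and composition, so this likeness is a description over 10 libraries.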

How the data were processed

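Islet RNA of 10 libraries was depleted of ribosomal RNA and sequenced from a stranded random-primed kit, per the labels' protocols. Of tools, STAR 2.4.0.1, HTSeq and DESeq2 are listed with no role, per the submitters' processing notes, and the authors' genome build was not given in the sources used here. In their table the authors deposited normalized counts per gene, here a signal unit, with their own log2 fold changes, test scores and p-values. Of 17946 rows, 1 without a name was left out. Between 24.7% and 36.8% of a library's values above 0 were whole multiples (tolerance 0.01) of its commonest low value, so reads could not be recovered for most genes and no count model was used. They could for most values of the receptor genes other than Gcgr and Chrm3. The commonest low value may stand for more than 1 read in controls 2, 3 and 5, where some values lay midway. Library totals divided by it ran from 2072840 to 10950969. No other columns of per-sample values were used or left over.

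Knockout was compared with control on log2(value + 8) by limma 3.58.1 (R 4.3.3), a scale that understates the change of low genes, with a mean-variance trend and robust estimates, after a filter of 10 in at least 5 libraries. Python 3.11.15 and scipy 1.17.1 served for exact 2-sided permutation tests and levels. Nothing in the labels ties libraries to separate animals, so the p-values reflect only how these libraries vary, which may be technical. The receptor genes and all lists were chosen with earlier results of these data known. Named from each other list were at most the 2 highest levels and the 2 smallest p, other than Gnai2, Prkar2a and, of the immune markers, those at 0 in a library. Not every gene so allowed is reported.

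Exon lengths and positions are those of GENCODE M21 (GRCm38), possibly another build than the authors used. No exon of another annotated gene overlaps an exon of the receptor genes.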

Additional observations from a re-analysis of the deposited data

Results flagged for a closer look

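Within the 5 control libraries, Sstr3 in control 3 (1003.0 normalized counts) stood apart from the other 4, which ran from 633.2 to 722.4. The gap was 0.759 of the whole range, above Dixon's 95% value. Npy1r in knockout 5 (8.4) stood apart from 4 knockouts listed at 0. With 4 values at 0, any value above 0 would stand apart in this way. For groups without ties, chance makes about 1 in 20 stand apart.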

How the results depend on the processing

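Over 22 alternatives, no receptor gene of the 9 passed at an adjusted p under 0.05 by limma. Glp1r, Gipr, Ffar1 and Sstr3 stayed below 0 and Gpr119 and Galr1 above 0 in each alternative in which they were tested, and 188 of 197 combinations of gene and alternative kept their direction. Those that turned were Gcgr (0.50 without knockout 1, 0.09 without control 5, 0.21 without controls 2 and 5, 0.28 with quality weights, 0.17 with the acinar covariate), Adra2a (0.30 without knockout 4) and Chrm3 (0.11 without knockout 3, 0.20 without knockout 4, 0.14 with the β-cell covariate). With single libraries left out, Gcgr ran from -0.53 to 0.50, Adra2a from -0.87 to 0.30 and Chrm3 from -0.62 to 0.20. The cause was not tested. With a pseudocount of 1 Gcgr was at -0.67. Over all genes 0 passed, and 1 without control 1 (0 to 1 with single libraries left out). The count was 1 without controls 2 and 5 (Esr1) and 1 without the trend and robust estimates. Controls 2 and 5 were left out for their Esr1 values, so the passing of Esr1 was set by that choice. The exact permutation test had 1 receptor gene under 0.05, Ffar1, and 0 with upper-quartile scaling, total-value scaling or without controls 2 and 5. With single libraries left out it had 0 to 1, and without knockout 2 that gene was Glp1r in place of Ffar1. In the order of levels per kilobase, 8 of the 10 genes kept their place with total-value scaling. All 10 did with the other scalings and with libraries left out. No paired analysis was possible because the labels give no shared replicate numbers. The minimum of 50 left Gpr119 untested. Depth limits what the values at 0 show, those of Gcgr and Gpr119 in knockout 1, Gpr119 in control 1 and Npy1r in 9 libraries.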
